A study of Mus musculus with 2 samples.

Results

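Hmga1, Hmga2, Igf2bp1, Igf2bp2, Igf2bp3, Lin28b and H19 are 7 genes of the 32285 counted in single cells of mouse omental tumors, taken by their symbols because they are active in the embryo and often switched on again in tumors. Apart from Igf2bp2 they are largely silent in adult tissue. All 7 were read in cancer cells and in the host cells around them. Cancer cells were defined as barcodes in which Krt7, Krt8, Krt18 and Krt19 made up at least 0.1% of the unique molecular identifiers (UMIs, each of which counts 1 captured transcript) and in which no Ptprc, the pan-leukocyte gene, was counted. This gave 3589 cancer cells among 6777 kept barcodes of the KPCA.FSTKO library and 2274 among 4041 of the KPCA.FSTKO_hFSTL3 library.

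KPCA is a mouse line made from fallopian tube epithelial cells. Its engineered changes include mutant Trp53 and overexpression of Ccne1 and Akt2. The follistatin gene Fst was knocked out in KPCA.FSTKO. Transfection of that line with human FSTL3 and geneticin selection gave KPCA.FSTKO_hFSTL3, which is 1 stable clone, so both groups share the Fst deletion. Both were grown in adult female C57BL/6J mice, and the labels name no treatment. At day 10 after grafting, 4 tumors per group were pooled into 1 library, so a difference between the groups has no replicate check and cannot be told apart from a difference between clones or preparations. No test between groups was made. All 95% intervals are exact and cover counting error only.

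HMGA1 and HMGA2 are small chromatin proteins that bind the minor groove of AT-rich DNA and bend it for other factors. IGF2BP1, IGF2BP2 and IGF2BP3 bind messenger RNAs, among them that of Igf2, and change how stable they are and how much protein they give. LIN28B blocks the maturation of let-7 microRNAs, and let-7 in turn represses the messenger RNAs of Hmga2, Lin28b and the Igf2bp genes, which ties these genes into 1 circuit of fetal growth. H19 is an imprinted long noncoding RNA that neighbours Igf2 and carries the microRNA miR-675.

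The letters of that circuit can be read from the reference. The let-7 family members below share the same seed, bases 2 to 8 of the mature microRNA, which is in capitals. They are RefSeq sequences of build GRCm38.p6, shown because the 3′ untranslated regions of the genes described here were searched for this seed. The listed copy of let-7a lies on chromosome 13 from 48538239 to 48538260 and that of let-7g on chromosome 9 from 106178846 to 106178867. miR-98 lies on the X chromosome from 151913229 to 151913250. The last line is miR-675-5p, which lies within H19 on chromosome 7 from 142577112 to 142577133 and has another seed.
mmu-let-7a-5p: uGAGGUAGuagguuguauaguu
mmu-let-7g-5p: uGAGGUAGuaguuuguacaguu
mmu-miR-98-5p: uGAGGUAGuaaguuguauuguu
mmu-miR-675-5p: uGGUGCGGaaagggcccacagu

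The letters searched, CTACCTC, are the complement of the let-7 seed and were read on the transcript strand of the longest annotated 3′ untranslated region of each gene (GENCODE M21). They occur in 9.02% of 21020 protein-coding genes. Hmga2, Igf2bp1 and Lin28b each hold 4, and 12 genes in all (0.0571%) hold 4 or more. Hmga1, Igf2bp2 and Igf2bp3 each hold 1. No match was found in the longest H19 transcript of 2286 bases. Length matters for such a count: of genes with 3′ regions of like length, 16.1% hold at least 1 match for Hmga2, 34.4% for Igf2bp1 and 24.4% for Lin28b, while 0.123%, 0.331% and 0.295% hold 4 or more. The 4 matches of Hmga2, the first of Igf2bp1 and Lin28b and the only match of Igf2bp2, Igf2bp3 and Hmga1 are shown with their neighbouring bases, the match in capitals, because 6 of the 7 genes hold the same letters. They start at bases 58, 1295, 1733 and 2591 of the Hmga2 region. In Igf2bp1 and Lin28b the start is base 1715 and base 36, and in Igf2bp2, Igf2bp3 and Hmga1 it is base 1313, 548 and 801. A match of letters is not a measured site, and the poly-A based counts do not measure let-7.
Hmga2, match 1: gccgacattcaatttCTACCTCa
Hmga2, match 2: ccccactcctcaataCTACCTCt
Hmga2, match 3: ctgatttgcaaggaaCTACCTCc
Hmga2, match 4: aatcaaaacacactaCTACCTCt
Igf2bp1, match 1: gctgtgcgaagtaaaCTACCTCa
Lin28b, match 1: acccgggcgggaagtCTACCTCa
Igf2bp2: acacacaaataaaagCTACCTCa
Igf2bp3: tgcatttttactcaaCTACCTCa
Hmga1: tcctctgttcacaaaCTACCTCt

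The libraries held 168214773 UMIs in 7582 barcodes for KPCA.FSTKO and 80391504 UMIs in 4244 barcodes for KPCA.FSTKO_hFSTL3. The 2 libraries shared 12 barcodes, 10 of them kept. Cancer line genes outside the gate (Wfdc2, Msln, Cldn3, Cldn4, Cldn7, Areg and Cdh1) made up 1289 of every 1000000 UMIs (counts per 1000000, CPM) in KPCA.FSTKO cancer cells, 77.3 CPM in its macrophages and 238 CPM in its fibroblasts. In KPCA.FSTKO_hFSTL3 they were at 474, 51.3 and 87.6 CPM. These genes, which the gate did not use, were thus higher in the cancer gate than in these host classes of each library. The authors also use Msln and the gate gene Krt19 as mesothelial markers, and no host class here was mesothelial. At least 2 markers of a separate mesothelial list were found in 0.362% of KPCA.FSTKO and 2.73% of KPCA.FSTKO_hFSTL3 cancer cells. The KPCA.FSTKO_hFSTL3 library stood apart. Pancreatic acinar genes, most of them digestive enzymes, took 0.946% of its UMIs against 0.0287% in KPCA.FSTKO. They were at 7677 CPM in its cancer gate, above the 2709 CPM of the keratin genes that defined it, and 99.7% of its 2274 barcodes had at least 3 of them, against 4.76% in KPCA.FSTKO. In its cancer gate 1594 of 2274 barcodes (70.1%) had at least 3 of 8 macrophage markers, against 4.65% of KPCA.FSTKO cancer cells. At least 3 of 7 fibroblast markers were found in 72.7% and 24.3%, and at least 3 of 6 erythroid markers in 72.8% and 0.557%. Its median mitochondrial share was 10.7% against 3.54%. The ratios of CPM between the libraries are therefore also given without such barcodes. The rule on Ptprc also took more from this library: barcodes with both keratin genes and Ptprc were 1242 of its 4041 (30.7%) and 131 (1.93%) in KPCA.FSTKO. They were left out of the cancer cells, and held 488 and 1516 CPM of Hmga2 and 35.8 and 129.8 CPM of Hmga1. Fst itself still had 554 UMIs (5.78 CPM) in KPCA.FSTKO and 565 UMIs (16.1 CPM) in KPCA.FSTKO_hFSTL3 cancer cells. Reads at the 3′ end of a transcript need not cover a deleted part and do not check the deletion. The authors report by qPCR that Fst expression was lost in both lines. Host classes were gated on marker lists at 0.1% of UMIs, and KPCA.FSTKO_hFSTL3 had 163 macrophages, 87 fibroblasts and 21 erythroid cells but fewer than 20 of every other class.

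Relative to all host cells of the same library, 4 of the 7 genes were at least 2-fold higher in KPCA.FSTKO cancer cells (Hmga1, Hmga2, Igf2bp1 and Igf2bp3) and 1 was at least 2-fold lower (H19). Over all 13976 genes with at least 100 UMIs, 8.87% were as much higher and 19.3% as much lower. In KPCA.FSTKO_hFSTL3, 6 were higher and H19 was lower, against 10.4% and 24% of 11914 genes, with Lin28b at 4.01 (1.52 to 14.99) from only 4 host UMIs. The median log2 ratio of the 7 was 1.05 and 2.01, beside -0.00058 and -0.26 over all genes. These ratios moved with the fibroblast gate. When a fibroblast needed 1% instead of 0.1% of its UMIs in fibroblast genes, an alternative chosen after seeing the data, 6 of the 7 were higher in KPCA.FSTKO too, while 2438 instead of 1239 of all genes were. The plot of levels by class gives all 7 genes.

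**Figure D1:**
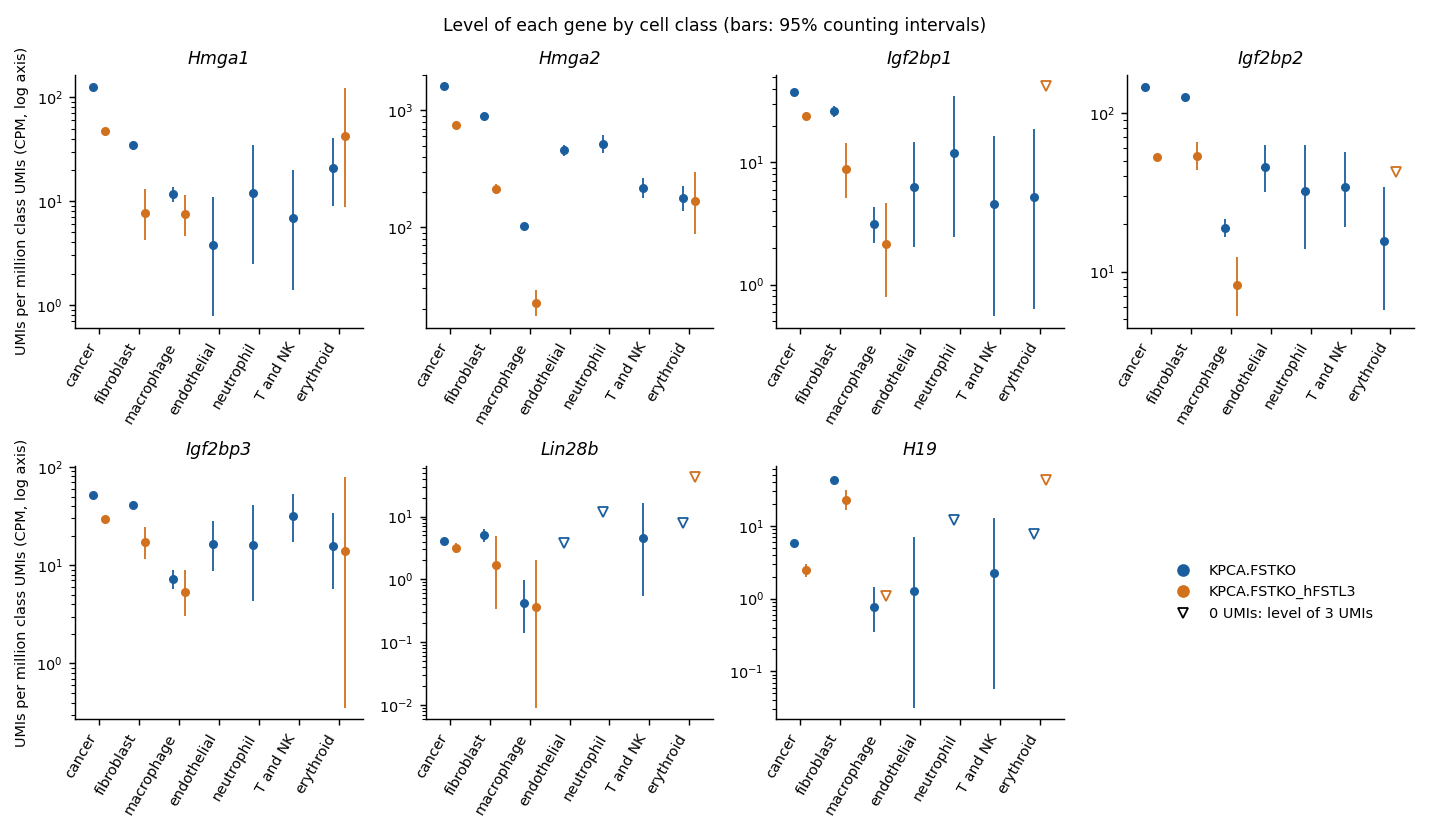
Level of each gene in CPM of its class (log axis) in classes of 20 or more barcodes, with KPCA.FSTKO in blue and KPCA.FSTKO_hFSTL3 in orange, exact 95% counting intervals as bars and open triangles at the level of 3 UMIs where none was counted. Hmga1, Hmga2 and the 3 Igf2bp genes had their highest measured level in cancer cells of KPCA.FSTKO, and H19 was highest in fibroblasts of each library.

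Hmga1 (ENSMUSG00000046711, chromosome 17 of GRCm38, 27556497 to 27563674, plus strand) was counted 12085 times in KPCA.FSTKO cancer cells, or 126 CPM (95% interval 124 to 128), and 1652 times in those of KPCA.FSTKO_hFSTL3, or 47.1 CPM (44.8 to 49.4). Fibroblasts were at 34.4 and 7.76 CPM and macrophages at 11.6 and 7.53 CPM. In KPCA.FSTKO no other class reached cancer cells, and fibroblasts (31.4 to 37.6) stood above macrophages (9.74 to 13.7) but overlapped erythroid cells (8.97 to 40.9), which held only 8 UMIs. Cancer cells were 5.55 times (5.12 to 6.02) as high as all host cells in KPCA.FSTKO and 6.07 times (4.42 to 8.57) in KPCA.FSTKO_hFSTL3. Of all Hmga1 UMIs in kept KPCA.FSTKO barcodes 84.8% lay in cancer cells, which held 67.4% of all UMIs. In KPCA.FSTKO_hFSTL3 they were 60.4% and 50.3%, and another 37.3% of Hmga1 lay in the barcodes with keratin genes and Ptprc. Its near-identical copy Hmga1b was also higher in cancer cells, at 7.82 against 1.64 CPM in host cells of KPCA.FSTKO and 9.09 against 1.99 CPM in KPCA.FSTKO_hFSTL3. Reads that fit both copies cannot be placed, so both levels are uncertain.

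Hmga2 (ENSMUSG00000056758, chromosome 10, 120361275 to 120476469, minus strand) was counted 154277 times in KPCA.FSTKO cancer cells and 26283 times in those of KPCA.FSTKO_hFSTL3, or 1610.3 CPM (1602 to 1618) and 749 CPM (740 to 758). A Hmga2 UMI was found in 92.3% and 87.4% of cancer cells. In KPCA.FSTKO the next class was fibroblasts at 895 CPM (880 to 911), which did not overlap cancer cells. Neutrophils (519 CPM), endothelial cells (455 CPM) and pericytes (404 CPM) followed with overlapping intervals, then T and NK cells (218 CPM) and erythroid cells (177 CPM), and last macrophages at 103 CPM (97.7 to 109), dendritic cells (76.9 CPM) and B cells (55.6 CPM). Several of these host values rested on very few barcodes. A single neutrophil barcode held 83 of 130 UMIs, an endothelial one 137 of 361, a T and NK one 57 of 96 and a pericyte one 48 of 55. Without that barcode the classes were at 188, 282, 88.7 and 51.4 CPM. In KPCA.FSTKO_hFSTL3 macrophages were at 22.6 CPM (17.4 to 28.9) and fibroblasts at 214 CPM (193 to 236).

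Macrophages, the largest host class of both libraries with 872 and 163 barcodes, served as the background class, since free RNA and joined cells can give cancer transcripts to host barcodes. In KPCA.FSTKO their Hmga2 level was 6.42% of that in cancer cells, close to the 6.00% of the cancer line genes outside the gate. For the other 6 members it was 8.37% (Igf2bp1) to 13.9% (Igf2bp3). In KPCA.FSTKO_hFSTL3 it was 3.02% for Hmga2 and 10.8% for the cancer line genes. Thinned to 2000 UMIs each, 79.5% (78.1 to 80.9%) of KPCA.FSTKO cancer cells and 12.7% (10.6 to 15.1%) of its macrophages had a Hmga2 UMI, with 460 and 15 shallower cells left out. For KPCA.FSTKO_hFSTL3 they were 61.9% and 5.88%, and 336 and 10 shallower cells were left out. Before thinning the macrophage shares were 47.8% and 24.5%, at median depths of 12788.5 and 17708 UMIs, against 25879 and 12301 in cancer cells. For 6 of the 7 members in KPCA.FSTKO (all but H19) the interval of the thinned share in cancer cells lay above that in macrophages. In KPCA.FSTKO_hFSTL3 it did so for 4 (Hmga1, Hmga2, Igf2bp1 and Igf2bp2). The same count over all genes was not made, so these counts do not set the members apart from other genes.

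Igf2bp1 (ENSMUSG00000013415, chromosome 11, 95957163 to 96005940, minus strand), the paralog best known from embryonic tissue, had a level of 37.4 CPM (36.2 to 38.7) in cancer cells of KPCA.FSTKO and of 24.1 CPM (22.5 to 25.8) in those of KPCA.FSTKO_hFSTL3. It was at 26.3 and 8.87 CPM in fibroblasts and at 3.13 and 2.15 CPM in macrophages. Cancer cells were thus 2.48 times (2.24 to 2.74) as high as host cells in KPCA.FSTKO and 5.51 times (3.62 to 8.84) in KPCA.FSTKO_hFSTL3. Endothelial cells, neutrophils, T and NK cells and erythroid cells of KPCA.FSTKO held only 2 to 5 UMIs each.

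Igf2bp2 (ENSMUSG00000033581, chromosome 16, 22059009 to 22163299, minus strand), the paralog that adult tissues also express, had a fibroblast level close to that of cancer cells. It was counted at 145 CPM (143 to 148) in cancer cells and 126 CPM (120.0 to 132) in fibroblasts of KPCA.FSTKO, which did not overlap. The cancer cells of KPCA.FSTKO_hFSTL3 had 52.7 CPM (50.4 to 55.2) and its fibroblasts 53.8 CPM (43.6 to 65.6), which did. In KPCA.FSTKO fibroblasts with at least 1% of UMIs in fibroblast genes it was still at 52.8 CPM, against 18.9 CPM in macrophages. In those of KPCA.FSTKO_hFSTL3 it was at 40.1 CPM, and macrophages were at 8.25 CPM. The ratio of cancer cells to all host cells was 1.98 (1.89 to 2.07) and 2.21 (1.84 to 2.68), on either side of the 2-fold line.

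Igf2bp3 (ENSMUSG00000029814, chromosome 6, 49085223 to 49214957, minus strand) reached 51.9 CPM (50.4 to 53.3) in cancer cells of KPCA.FSTKO and 29.6 CPM (27.8 to 31.4) in those of KPCA.FSTKO_hFSTL3. It was at 41.4 and 17.2 CPM in fibroblasts and at 7.20 and 5.38 CPM in macrophages. The 14 UMIs in 72 T and NK cells of KPCA.FSTKO (31.9 CPM, 17.4 to 53.4) reached into the interval of cancer cells. Its ratio of cancer to host cells was 2.07 (1.91 to 2.24) and 3.04 (2.28 to 4.13). The 3 Igf2bp genes were also counted cell by cell, without thinning. Among KPCA.FSTKO cancer cells with at least 5000 UMIs, 1202 of 2887 (41.6%) had a UMI of all 3 and 7.20% of none, at a median of 30527 UMIs. Of 615 fibroblasts 20.3% had all 3 and 26.0% none (20452 UMIs), and of 795 macrophages 0.755% and 78.2% (13486 UMIs). In KPCA.FSTKO_hFSTL3 10.8% of 1586 cancer cells had all 3 and 28.6% none (16967 UMIs), but among the 165 with acinar genes under 0.1% it was 55.2% and 5.45% (48330 UMIs). Depth moved with these shares, and no order between the classes or libraries is read from them. Igf2, whose messenger RNA gave the family its name, had 5 UMIs in KPCA.FSTKO cancer cells and 0 in those of KPCA.FSTKO_hFSTL3, a gene named here after its values were seen.

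Lin28b (ENSMUSG00000063804, chromosome 10, 45376620 to 45486395, minus strand) was sparse. Cancer cells held 395 and 112 UMIs, or 4.12 CPM (3.73 to 4.55) and 3.19 CPM (2.63 to 3.84), and a UMI was found in 8.58% and 3.91% of them at unlike depth. Fibroblasts of KPCA.FSTKO were at 5.06 CPM (3.95 to 6.39), overlapping cancer cells, and the ratio of cancer cells to all host cells was 1.49 (1.16 to 1.92). KPCA.FSTKO fibroblasts with at least 1% of fibroblast genes held 3 UMIs (0.486 CPM). Macrophages held 5 UMIs (0.424 CPM) and 1 UMI (0.359 CPM). After thinning, 1.25% (0.888 to 1.70%) of KPCA.FSTKO cancer cells and 0.117% (0.0030 to 0.648%) of macrophages had a UMI. In KPCA.FSTKO_hFSTL3 0.413% of cancer cells and 0 of 153 macrophages did, which allows a share of up to 1.96%, so no difference was detectable there at this depth. Its paralog Lin28a had 0 UMIs in the cancer and host cells of both libraries.

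H19 (ENSMUSG00000000031, chromosome 7, 142575529 to 142578143, minus strand, a long noncoding RNA) ran the other way. Its level in KPCA.FSTKO was 42.6 CPM (39.3 to 46.2) in fibroblasts and 5.71 CPM (5.24 to 6.21) in cancer cells. The fibroblasts of KPCA.FSTKO_hFSTL3 had 22.7 CPM (16.3 to 30.8) and its cancer cells 2.45 CPM (1.96 to 3.03). Cancer cells were 0.134 times (0.119 to 0.151) and 0.108 times (0.0735 to 0.160) as high as fibroblasts. Macrophages held 9 and 0 UMIs, and the 0 is below 1.08 CPM at a floor of 3 counts. Among KPCA.FSTKO cancer cells H19 was also the most uneven of the 7 genes by the share of its UMIs in the top 5% of cells. In KPCA.FSTKO its 598 fibroblast UMIs lay in 84 of 677 barcodes (12.4%). In its cancer cells with at least 5000 UMIs 6.65% had any, and the 5% of cells with most H19 held 91.2% of it, against 21.4% for Hmga2 and 60.3% for Lin28b. This measure must be high for a gene found in few cells, and Lin28b was found in 10.3%. In KPCA.FSTKO_hFSTL3 cancer cells with at least 5000 UMIs 4.29% had any H19, so the same measure could only be 100%. The 86 H19 UMIs of all its cancer cells lay in 75 barcodes. In KPCA.FSTKO_hFSTL3 fibroblasts 18 of 41 UMIs came from 1 barcode, and 12.8 CPM remained without it.

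The fibroblast gate held barcodes of unlike kinds. As the share of fibroblast genes in KPCA.FSTKO fibroblasts rose from 0.1 to 0.2% (86 barcodes) to 2% and over (208 barcodes), Hmga2 fell from 1523 to 89.7 CPM (80.6 to 99.6), which overlapped macrophages, and Hmga1 from 71.2 to 6.88 CPM. Igf2bp1 fell from 42.2 to 1.02 CPM, Igf2bp3 from 66.4 to 5.10 CPM and Lin28b from 8.35 to 0.255 CPM. Igf2bp2 fell less, from 171 to 40.8 CPM (34.7 to 47.6). H19 rose from 25.9 CPM (19.7 to 33.5) to 75.4 CPM (67.1 to 84.5). The fibroblasts richest in matrix genes thus had the lowest levels of the other 6 genes and the highest of H19. In KPCA.FSTKO_hFSTL3 the 39 barcodes with 2% and over were at 34.3 CPM for Hmga2, 25.4 CPM for Igf2bp2 and 6.64 CPM for H19, and the 23 with 1 to 2% at 240 CPM, 62.4 CPM and 57.4 CPM, so H19 ran the other way there, on 40 UMIs.

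**Figure D2:**
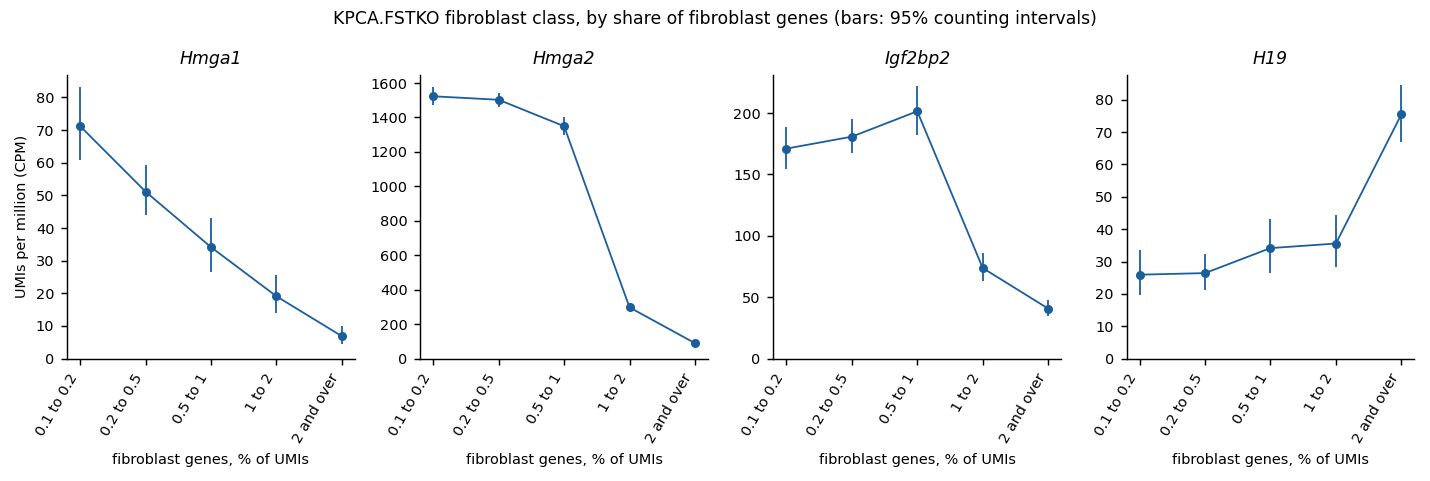
Levels of Hmga1, Hmga2, Igf2bp2 and H19 (CPM, linear axes from 0, 95% counting intervals as bars) in 677 KPCA.FSTKO barcodes of the fibroblast class, split by the percent of their UMIs in 7 fibroblast genes. Hmga2 drops from 1349 to 297 CPM between 0.5 to 1% and 1 to 2%, while H19 is highest, at 75.4 CPM, in the last group.

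The share of keratin genes, which the gate used, ordered the genes too. Among KPCA.FSTKO barcodes without Ptprc, Hmga1 rose with it from 15.3 CPM (12.8 to 18.1) below 0.02% to 98.4 CPM just inside the gate (0.1 to 0.2%) and 151 CPM (145 to 158) at 0.5% and over. Hmga2 did not follow: 1703 CPM just outside the gate (0.05 to 0.1%), 1669 just inside and 1617 at 0.5% and over. Igf2bp2 fell over the same 3 groups from 205 to 179 and 122 CPM, Igf2bp3 from 75.1 to 61.4 and 41.9 CPM, Igf2bp1 from 52.3 to 41.6 and 31.9 CPM, and Lin28b from 9.28 to 5.77 and 2.16 CPM. H19 fell most, from 24.2 to 12.9 and 0.744 CPM (0.371 to 1.33). Within 25% of the gate's limit lay 649 KPCA.FSTKO and 115 KPCA.FSTKO_hFSTL3 barcodes. Just outside it Hmga2 was thus as high as within. Fibroblast genes moved with H19 inside the gate: it was at 2.05 CPM in cancer cells with under 0.02% of fibroblast genes and at 17.6 CPM in those with 0.5% and over, and the part of joined cells in this was not tested.

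**Figure D3:**
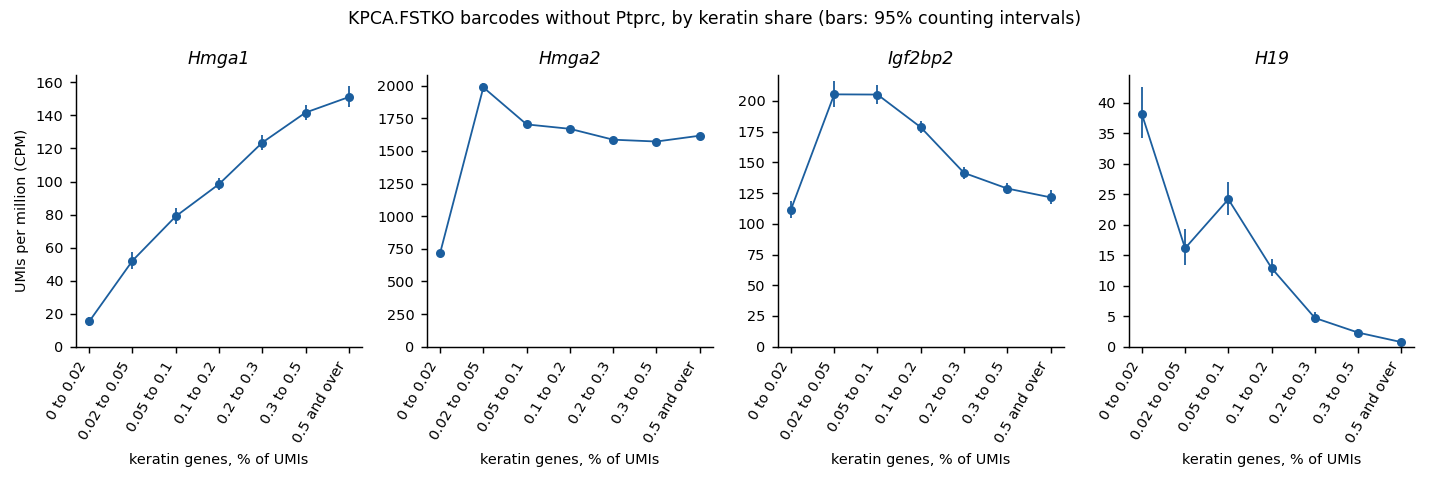
Levels of Hmga1, Hmga2, Igf2bp2 and H19 (CPM, linear axes from 0, 95% counting intervals as bars) in KPCA.FSTKO barcodes without Ptprc, split by the percent of their UMIs in Krt7, Krt8, Krt18 and Krt19. Hmga1 climbs to 151 CPM, Hmga2 stays between 1572 and 1987 CPM from 0.02% on, and H19 falls to 0.744 CPM.

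Hmga2 varied widely from one cancer cell to the next. Per 10000 UMIs, the middle 50% of KPCA.FSTKO cancer cells with at least 5000 UMIs lay between 5.66 and 20.7 UMIs around a median of 11.8. The same cells were ranked by their Hmga2 share and split into 4 equal groups, and the other genes were summed with Hmga2 left out of the totals. From the lowest to the highest group (721 cells each) Igf2bp3 went from 37.1 CPM (34.4 to 40.0) to 74.7 CPM (71.4 to 78.1), Igf2bp1 from 25.5 to 49.3 CPM, Igf2bp2 from 110.1 to 196 CPM, Lin28b from 3.32 to 5.35 CPM and Hmga1 from 101 to 134 CPM. H19 went from 7.70 CPM (6.50 to 9.05) down to 3.44 CPM (2.76 to 4.24). Depth moved with the split, with a median of 23125 and 34283 UMIs, as did fibroblast genes (1038 and 616 CPM) and cell cycle genes (505 and 818 CPM), whereas keratin genes were at 3037 and 3213 CPM. Their part was not tested. In the 42 lowest and 42 highest cancer cells of KPCA.FSTKO_hFSTL3 with acinar genes under 0.1%, Hmga1 was at 49.2 CPM (39.3 to 60.9) and 103 CPM (89.7 to 117) and Igf2bp3 at 48.1 CPM (38.3 to 59.6) and 71.9 CPM (61.3 to 83.9). Igf2bp1 and Igf2bp2 overlapped there.

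Cycling cells were taken as cancer cells with at least 0.1% of UMIs in 8 cell cycle genes. In KPCA.FSTKO (800 cycling, 2789 other cells) Hmga1 was at 146 against 121 CPM, a ratio of 1.20 (1.16 to 1.26), Igf2bp1 at 42.9 against 35.9 CPM (1.19, 1.11 to 1.29) and Hmga2 at 1700.5 against 1585 CPM (1.07, 1.06 to 1.09). Igf2bp2 was lower in cycling cells, at 131 against 149 CPM (0.877, 0.841 to 0.915). So, barely, was Igf2bp3 (0.933, 0.870 to 1.00), and the intervals of Lin28b and H19 held 1. In KPCA.FSTKO_hFSTL3 Hmga2 had a ratio of 2.54 (229 cycling, 2045 other cells) that was 1.46 (1.40 to 1.51) among cells with acinar genes under 0.1% (36 and 131 cells) and 1.02 (0.997 to 1.05) when 0.05% of cell cycle genes sufficed. Hmga1 (1.67, 1.43 to 1.94), Igf2bp1 (1.59, 1.28 to 1.97) and Igf2bp3 (1.33, 1.07 to 1.63) were also higher in its cycling cells. For Igf2bp3 this was opposite to KPCA.FSTKO. With 0.05% these 3 were at 0.927, 0.956 and 0.831 (0.729 to 0.946). The intervals of Igf2bp2, Lin28b and H19 held 1 at the 0.1% limit.

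Between the libraries, 0 of the 7 genes were at least 2-fold higher and 4 at least 2-fold lower in KPCA.FSTKO_hFSTL3 cancer cells (Hmga1, Hmga2, Igf2bp2 and H19), against 8.96% and 7.1% of 13612 genes. The ratios were 0.373 (0.354 to 0.393) for Hmga1, 0.465 (0.459 to 0.471) for Hmga2, 0.363 (0.346 to 0.382) for Igf2bp2 and 0.429 (0.338 to 0.540) for H19. They were 0.644 for Igf2bp1, 0.570 for Igf2bp3 and 0.774 (0.622 to 0.957) for Lin28b. Among cells with acinar genes under 0.1% the ratios of Igf2bp1, Igf2bp3, Lin28b and Hmga2 were above 1. Only the interval of Igf2bp1 (1.03 to 1.28) left out 1. The ratio of Lin28b was also above 1 among cells with no macrophage marker, with an interval that held 1. The median log2 ratio was -1.10 over the 7 and -0.18 over all genes. These values moved with the RNA of other cells in the KPCA.FSTKO_hFSTL3 barcodes. In its cancer cells Hmga2 was at 1565 CPM where acinar genes were 0.01 to 0.1% of UMIs (160 cells), 722 CPM at 0.1 to 0.5% (155 cells), 493 CPM at 0.5 to 1% (758 cells) and 420.4 CPM at 1% and over (1194 cells). In KPCA.FSTKO, where 3374 of 3589 cancer cells were under 0.1%, it was between 1496 and 1618 CPM up to 0.5%. Likewise, KPCA.FSTKO_hFSTL3 cancer cells with 3 or more macrophage markers were at 484 CPM, those with 1 or 2 at 1600.3 CPM and those with none at 1301 CPM, against 1588 to 1638 CPM in KPCA.FSTKO. The part of this RNA in the differences was not tested.

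**Figure D4:**
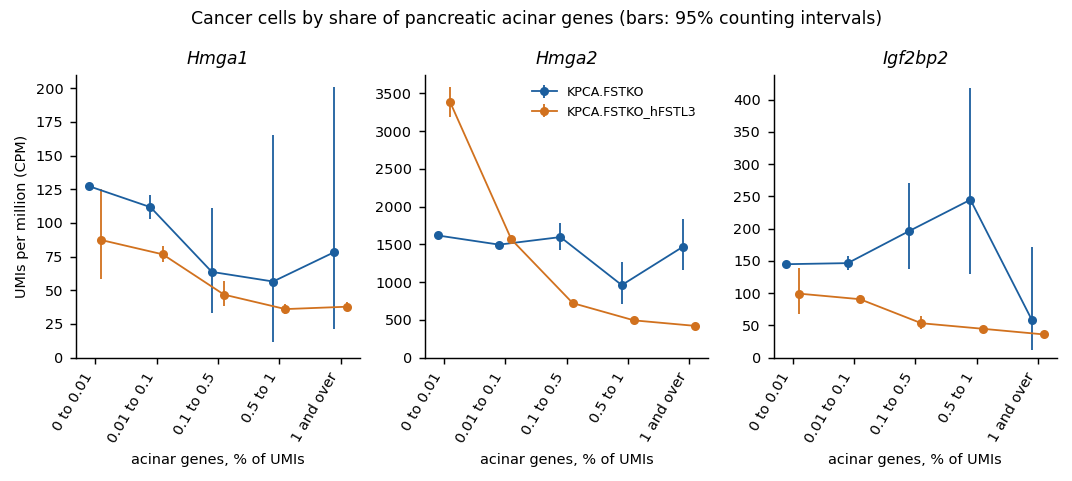
Levels of Hmga1, Hmga2 and Igf2bp2 (CPM, linear axes from 0, 95% counting intervals as bars) in cancer cells split by the percent of UMIs in 20 pancreatic acinar genes, KPCA.FSTKO in blue and KPCA.FSTKO_hFSTL3 in orange. In the orange library Hmga2 falls from 1565 to 420.4 CPM between 0.01 to 0.1% and 1% and over. The first orange group holds 7 cells and the last blue groups hold 13 and 15.

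Cancer cells with acinar genes under 0.1%, a limit chosen after seeing the data, numbered 3374 and 167, with medians of 27302.5 and 48293 UMIs. The 167 were a small part of the 2274 KPCA.FSTKO_hFSTL3 cancer cells. Restricted to these cells, Hmga2 was at 1611 and 1638 CPM, a ratio of 1.02 (0.999 to 1.03), and Igf2bp3 at 51.9 and 54.5 CPM (1.05, 0.952 to 1.16). Igf2bp1 was at 37.4 and 43.1 CPM (1.15, 1.03 to 1.28). Hmga1 remained lower, at 126 and 77.1 CPM (0.610, 0.563 to 0.661), as did Igf2bp2 at 145 and 91.0 CPM (0.627, 0.582 to 0.675) and H19 at 5.71 and 2.05 CPM (0.359, 0.208 to 0.581), from 17 UMIs in KPCA.FSTKO_hFSTL3. Lin28b was at 4.11 and 5.43 CPM, and its ratio of 1.32 (0.947 to 1.80) held 1. The 255 and 103 barcodes with 8000 or more genes, which the filter left out and no gate sorted, had a median of 87459 and 92223 UMIs. There Hmga2 was at 1987 and 1910 CPM, Hmga1 at 132 and 81.2 CPM (0.613, 0.568 to 0.662) and Igf2bp2 at 159 and 76.4 CPM (0.480, 0.444 to 0.518), while the ratio of Lin28b was 0.765 (0.496 to 1.15). Igf2bp1 went the other way, at 39.8 and 46.8 CPM (1.18, 1.05 to 1.31). Cancer cells with no macrophage marker (1642 and 264) had unlike depths, with medians of 23494.5 and 2345 UMIs. There the ratio was 0.584 for Hmga1, 0.572 for Igf2bp2, 0.794 for Hmga2 and 0.826 for Igf2bp3, while those of Igf2bp1, Lin28b (1.18) and H19 had intervals that held 1. In the 1527 and 67 cells that met both limits, with medians of 25039 and 40411 UMIs, it was 0.616 (0.534 to 0.706) for Hmga1 and 0.617 (0.545 to 0.697) for Igf2bp2. For Hmga2 it was 0.899 (0.872 to 0.928), and for H19 0.841 with an interval that held 1. Among the barcodes with 8000 or more genes their ratios were 0.961 (0.945 to 0.977) and 0.133. Only Hmga1 and Igf2bp2 thus had intervals below 1 in every one of these subsets. The ratio of H19 was also below 1 in each, but its interval held 1 in both subsets without macrophage markers. Hmga2 was lower in every subset except the cells with acinar genes under 0.1%.

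**Figure D5:**
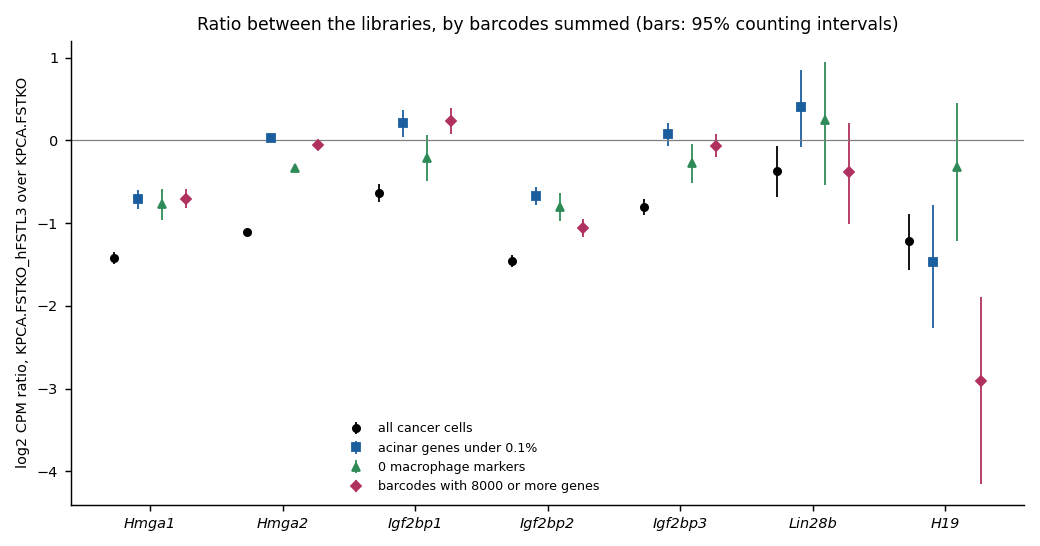
Log2 ratio of CPM, KPCA.FSTKO_hFSTL3 over KPCA.FSTKO, for each gene in all cancer cells (black), cancer cells with acinar genes under 0.1% of UMIs (blue), cancer cells with no macrophage marker (green) and barcodes with 8000 or more genes (red), with 95% counting intervals as bars. All black points lie below 0, and in the blue and red sets Hmga1, Igf2bp2 and H19 stay below 0 while Hmga2 and Igf2bp3 lie near it.

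The neighbours of these genes in their pathways did not move as a block. Of 28 genes of the LIN28 and let-7 pathway 25 had enough UMIs, and 2 were at least 2-fold higher and 6 lower in KPCA.FSTKO cancer than host cells (3 and 7 in KPCA.FSTKO_hFSTL3), with a median log2 ratio of -0.01 and -0.42. Over all genes 8.87% were higher and 19.3% lower (10.4% and 24%), with medians of -0.00058 and -0.26, so the list's counts lay near those shares. Ccnd1, the G1 cyclin and a let-7 target, was higher in both, at 746 against 183 CPM (4.07 times) and 553 against 141 CPM (3.92 times). Lower in both were Tut7, an enzyme that adds uridines to let-7 precursors, at 0.425 and 0.388 times, the insulin receptor Insr (0.439 and 0.281), its adaptor Irs2 (0.274 and 0.182), the TGF-beta receptor Tgfbr1 (0.340 and 0.227) and the transcription factor Arid3a (0.194 and 0.164). Between the libraries 0 of these 25 genes were higher and 1 lower.

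Of 17 imprinted growth genes in the files 13 had enough UMIs in KPCA.FSTKO, and 1 was higher and 5 lower in cancer cells. In KPCA.FSTKO_hFSTL3 10 had enough, and 0 were higher and 8 lower. Their median log2 ratios were -0.56 and -2.0, beside the 19.3% and 24% of all genes that were lower and the medians of -0.00058 and -0.26. Lower in both were the noncoding RNAs Meg3 (3.86 against 111 CPM, and 35.5 against 131 CPM) and Rian, the adaptor Grb10 (1.89 against 58.4 CPM, and 8.95 against 64.4 CPM), Mest and Ndn, so that H19 shared its direction with them. The 1 higher in KPCA.FSTKO was Phlda2, at 4.27 against 0.107 CPM from 3 host UMIs. In KPCA.FSTKO_hFSTL3 it had 84 UMIs in cancer and 0 in host cells, under the minimum. Of 12 other high mobility group proteins 2 were higher in KPCA.FSTKO cancer cells and 0 lower (3 and 1 in KPCA.FSTKO_hFSTL3), against 8.87% and 19.3% of all genes (10.4% and 24%). Higher in both libraries were Hmga1b and Hmgb3, the latter at 67.3 against 18.1 CPM and 54.0 against 25.6 CPM. Of 12 other oncofetal genes 7 and 4 had enough UMIs, of which 2 and 2 were higher and 3 and 1 lower, beside the same shares of all genes. Tead4, a transcription factor of the trophoblast, was higher in both (4.42 and 2.97 times), and Mdk, the growth factor midkine, was lower in both (0.0283 and 0.130 times).

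Across the 11 profiles of classes with 20 or more barcodes, the genes whose log2 levels ran most like each of the 6 members with at least 100 UMIs in cancer cells of both libraries (all but H19), among 13227 with at least 200 UMIs, were listed as a description. They were Ltbp1, Gm49890 and Pak3 for Hmga2 (Pearson r from 0.962 to 0.977), Sprr1a, Prss22 and Foxa2 for Hmga1 (0.922 to 0.952) and Mex3d, Pir and Patz1 for Igf2bp2 (0.962 to 0.968). For Igf2bp1 they were Arpin, Pick1 and Pir (0.963 to 0.966), and for Igf2bp3 Pfn2, Cacnb2 and Ltbp1 (0.916 to 0.927). For Lin28b they were Gm10069, Gm960 and Dipk1b (0.973 to 0.978), but it had no UMI in 4 of the 11 profiles. Among the members the closest pairs were Igf2bp1 with Igf2bp2 (0.926) and Hmga2 with Igf2bp3 (0.879), and Hmga1 with Igf2bp2 was the farthest (0.105). The erythroid profile of KPCA.FSTKO_hFSTL3 held only 71033 UMIs in 21 barcodes, with 0 UMIs of Igf2bp1 and Igf2bp2 and 3 of Hmga1. How far the order of these pairs rests on that profile was not tested. The profiles share libraries and differ in depth, and carry free RNA.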

How the data were processed

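Tumors of each cell line were dissociated, and 1 library per group was made with a 10x Genomics 3′ kit and run through Cell Ranger (3.1.0 in the labels, 7.2.0 in the matrix headers) on mm10. Whether intronic reads were counted is not given in the sources used here, which matters for genes with long introns. The authors deposited raw UMI counts per gene and barcode, without normalization. The cell numbers in the methods equal the deposited barcodes (7582 and 4244), of which the stated filter (mitochondrial share under 20%, over 200 and under 8000 genes) leaves 6777 and 4041. Doublets were kept.

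The 7 members, the lists and the class gates were chosen with earlier results of these data known. Host classes needed keratin genes under 0.1% and at least 3 detected markers and 0.1% of UMIs in 1 of 9 lists. Barcodes that met several, or none, or held keratin and Ptprc together (131 and 1242 barcodes), were in no class. The gene lists hold 2 symbols that are not in the files.

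UMIs were summed per class and divided by the class total (CPM), with exact Poisson intervals for sums, conditional binomial intervals for ratios and Clopper-Pearson intervals for shares. A size rule (at least 100 UMIs and a ratio of at least 2) stood in place of a test, and 0 UMIs were set against a floor of 3. Shares were thinned to 2000 UMIs. Genes were named as follows: all members, the listed genes past the size rule in the same direction in both libraries, and the 3 genes most like each member with at least 100 UMIs in cancer cells of both libraries, in log2(CPM + 1). Lin28a, Igf2 and Phlda2 are outside that rule, picked once their values were known. Let-7 matches were searched in GENCODE M21 transcripts. The counting and the size rule were tested on simulated data.

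Alternatives changed the gates, filter, scaling (TMM of edgeR 4.0.16, used for scaling alone), thresholds and thinning. The 6 alternatives on acinar genes, macrophage markers and the fibroblast gate were chosen after seeing the data. Software was R 4.3.3 and Python 3.11.15 with pandas 2.3.3, scipy 1.17.1, matplotlib 3.10.9 and numpy 2.4.6. Human FSTL3 was not analysed here.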

Additional observations from a re-analysis of the deposited data

Results flagged for a closer look

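Barcodes outside the comparisons held members above the level in cancer cells. In KPCA.FSTKO the 1069 barcodes that no gate named had 2243 CPM of Hmga2, 59.8 of Igf2bp1, 248 of Igf2bp2, 87.8 of Igf2bp3, 10.2 of Lin28b and 12.3 of H19, while Hmga1 was at 79.2 CPM, 0.628 times cancer cells. Barcodes with 20% or more mitochondrial UMIs had 3238 CPM of Hmga2, 70.4 of Igf2bp1, 352 of Igf2bp2 and 112 of Igf2bp3 in KPCA.FSTKO, and 1774 CPM of Hmga2 in KPCA.FSTKO_hFSTL3. In those of KPCA.FSTKO the 5 members whose genes span 48.8 to 130 kb were 1.88 to 2.43 times as high as in cancer cells, while Hmga1, which spans 7.18 kb, was at 0.264 times and H19, which spans 2.62 kb, at 0.657 times. The part of intronic reads in this was not tested. Barcodes with 8000 or more genes had 1987 CPM of Hmga2, 159 of Igf2bp2 and 61.4 of Igf2bp3 in KPCA.FSTKO. In KPCA.FSTKO_hFSTL3 they had 81.2 CPM of Hmga1, 1910 of Hmga2, 46.8 of Igf2bp1, 76.4 of Igf2bp2 and 58.6 of Igf2bp3.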

How the results depend on the processing

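With 1 library per group no left-out replicate was possible, and TMM scaling shifted the log2 ratios by 0.19, 0.50 and 0.05. Of the results that answer a comparison, 159 values held under the alternatives and 45 moved. Of the other values 198 held, 130 moved and 1 reversed. Members at least 2-fold higher in cancer than host cells numbered 4 in KPCA.FSTKO and 2 with a keratin limit of 0.2% or a ratio of 3, and 6 in KPCA.FSTKO_hFSTL3 and 3 with a keratin limit of 0.2%. The lower member, H19, was lost in KPCA.FSTKO with host classes weighted equally (0), and in KPCA.FSTKO_hFSTL3 without cancer cells with 3 or more markers of a host class, acinar genes of 0.1% or any macrophage marker (0 each). With equal weights its ratio was 0.730. In the other 3 it was 0.186, 0.252 and 0.485, still at least 2-fold lower, and only the minimum of 100 UMIs ended the call. Between the libraries the 4 lower members became 1 without such marker-positive cells, 1 with acinar genes under 0.1%, 0 with no macrophage marker and 0 at a ratio of 3. With acinar genes under 0.1% Hmga2 went from 0.465 to 1.02, Igf2bp3 from 0.570 to 1.05 and Igf2bp1 from 0.644 to 1.15. Of these only the interval of Igf2bp1 (1.03 to 1.28) left out 1. The ratio of Igf2bp1 kept its side of 1 in 11 of 13 alternatives. Lin28b turned from 0.774 to 1.32 with acinar genes under 0.1%, 1.18 with no macrophage marker and 1.21 without marker-positive cells, with intervals that held 1. Members above macrophages by share in KPCA.FSTKO_hFSTL3 numbered 4, and 1 when thinned to 1000 UMIs. Members lower in cycling cells of KPCA.FSTKO numbered 2, and 1 with a cell cycle limit of 0.05% or acinar genes under 0.1%. In KPCA.FSTKO_hFSTL3 4 were higher and 0 lower, which became 0 and 2 at 0.05%, and 1 and 1 with acinar genes under 0.1%. The cause was not tested. The counts of members by share and by cell cycle have no count over all genes beside them.

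Counts over all genes moved as follows. Higher in cancer cells of KPCA.FSTKO were 1239 genes, and 1866 with a keratin limit of 0.05%, 2843 and 461 at ratios of 1.5 and 3, 2378 with equal weights and 2438 with a fibroblast gate of 1%. Lower were 2691, and 4060 with a minimum of 20 UMIs. In KPCA.FSTKO_hFSTL3 1235 were higher, and 795 with a keratin limit of 0.2%, 2557 with TMM, 1893 with 20 UMIs, 2269 and 551 at ratios of 1.5 and 3 and 2084 with equal weights. Lower were 2858, and 1757 with TMM, 4392 and 1612 at ratios of 1.5 and 3, 1724 with equal weights, 1897 with acinar genes under 0.1% and 1866 with no macrophage marker. Between the libraries 1219 were higher, and 370 without marker-positive cells, 2423 with 20 UMIs, 1839 at a ratio of 1.5, 407 with acinar genes under 0.1% and 301 with no macrophage marker. Lower were 967, and 1523 without the 5% of barcodes with most UMIs, 1479 with 20 UMIs and 2907 and 316 at ratios of 1.5 and 3. No paired analysis was possible because each group is 1 library and the labels give no replicate numbers. Lin28b and H19 had the fewest UMIs and are limited most by depth.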
